A study of Homo sapiens with 240 samples.

Results

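The PGC-1 coactivators and estrogen-related receptors were followed as 8 genes chosen by symbol: the coactivator genes PPARGC1A, PPARGC1B and PPRC1, the receptor genes ESRRA, ESRRB and ESRRG, the corepressor gene NRIP1, and PERM1, a gene induced by both families in muscle. They are 8 of the 27234 genes listed in each of 5 tables of RNA levels. The 240 libraries came from HEK 293T, human embryonic kidney cells that carry the SV40 large T antigen, and fall into 80 groups of 3. In the first experiment, AMPK KO and AMPK WT cells were given the AMPK activator 991, phenformin (Phen), CCCP or rotenone (Rot) for 2, 4, 8 or 16 h, or DMSO at 0 h. In the second, FNIP1 KO cells carried either SA5 FNIP1, in which 5 sites of AMPK phosphorylation were changed to alanine, or WT FNIP1, so both arms share the loss of their own FNIP1 gene, and they received 991 for 2, 4, 8 or 16 h or DMSO. The other 3 compared cells lacking both TFEB and TFE3 (DKO) with WT cells, ESRRA KO with ESRRA WT cells, and cells with an siRNA against PGC1A (siPGC1a) with cells given a control siRNA (siControl), each under 991 for 2, 4, 8, 16 or 24 h or DMSO. DMSO was given only at 0 h, so treatment and time in culture cannot be told apart in any treated time. Doses, and whether a line is 1 clone, are not given in the labels used here.

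PGC-1 proteins bind no DNA themselves. They dock on transcription factors, among them the estrogen-related receptors, which are orphan nuclear receptors that bind the sequence TNAAGGTCA, and together they raise the transcription of genes for fatty acid oxidation, the tricarboxylic acid cycle and the respiratory chain. NRIP1 (RIP140) docks on the same receptors and lowers transcription of many of those genes. AMPK, the kinase that senses low cellular energy, is known to act on PGC-1α in muscle. Phenformin and rotenone block complex I of the respiratory chain, and CCCP lets protons leak across the inner mitochondrial membrane.

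The deposited values are TPM, transcripts scaled by gene length and library. Their low values are whole multiples of 1 step per library, and if 1 step is 1 read, the listed genes held 28827341 to 88008636 reads per AMPK library and 11475225 to 21182413 reads per library of the other tables. Low genes are therefore counted most closely in the AMPK table. PRKAA1, the gene of the AMPK α1 subunit, was at 2.15 to 3.73 TPM in AMPK KO libraries and at 6.03 to 10.6 TPM in AMPK WT libraries. PRKAA2, the gene of the α2 subunit, overlapped between AMPK KO libraries, at 2.55 to 4.87 TPM, and AMPK WT libraries, at 3.77 to 7.40 TPM. TFEB overlapped between DKO libraries, at 1.32 to 2.72 TPM, and TFEB/TFE3 WT libraries, at 1.24 to 3.56 TPM, as did TFE3, at 7.18 to 10.2 TPM in DKO and 8.81 to 14 TPM in TFEB/TFE3 WT libraries. A pair of SA5 libraries, DMSO replicate 1 and 991 at 8 h replicate 1, had FNIP1 at 5.474 and 45.05 TPM, against 164 to 195 TPM in the other SA5 libraries. They had 9834 and 11780 genes at 1 TPM or more, against 12036 and 12040 in the rest of the DMSO group and 12492 and 12528 in the rest of the 8 h group, and results that rest on them are given with and without them. Of 8 HEK 293T lineage markers 5 had a median of at least 1 TPM (PAX8 stood at 0), as did 1 of 10 mature kidney markers, 0 of 4 blood and vessel markers and 1 of 7 markers of muscle and brown fat, the tissues where these coactivators are best known. The summed level of the muscle and fat list, 15.5 to 60.7 TPM, came with TNNT1, whereas MYH7, UCP1 and CIDEA had medians of 0. For 6 AMPK WT libraries, 3 of Phen at 2 h and 3 of CCCP at 4 h, the wording of the label names another compound or time than the library name. They were placed by the library name and the treatment or time tag.

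Under DMSO the members spanned a wide range of levels, and 4 of them held 1 order in all 5 tables: PPRC1 was highest, followed by ESRRA, NRIP1 and PPARGC1B, with no overlap between neighbours among the control libraries. PPRC1, which encodes PRC, the PGC-1 family member that responds to serum growth factors (GRCh38 chromosome 10, 102132994 to 102150333, plus strand), had 23.6, 26.2 and 25.8 TPM in the 3 AMPK WT libraries. ESRRA, the gene of ERRα (chromosome 11, 64305528 to 64316740, plus strand, and from 64306227 in its own knockout table), had 13.98, 12.4 and 12.7 TPM there, NRIP1 (chromosome 21, 14961235 to 15064805, minus strand) 3.37, 3.29 and 3.63 TPM, and PPARGC1B, the gene of PGC-1β (chromosome 5, 149730252 to 149855022, plus strand), 2.04, 2.71 and 2.57 TPM. Across the control arms of the 5 tables these 4 genes ranged over 23.6 to 36.1, 7.39 to 13.98, 2.42 to 4.47 and 1.61 to 3.17 TPM in that order. The TPM scale divides by gene length, so levels of different genes can be set beside each other. The listed genes summed to 396341 to 449208 TPM per library, so 1 TPM is a larger share of them than the unit's name says.

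The other 4 members lay under 1 TPM in most libraries. PPARGC1A, the gene of PGC-1α (chromosome 4, 23792021 to 23890077, minus strand), had 0.657, 0.456 and 0.549 TPM in AMPK WT cells under DMSO and passed 1 TPM in 6 of the 240 libraries, all of them AMPK WT cells at 8 or 16 h of phenformin. ESRRG, the gene of ERRγ (chromosome 1, 216503246 to 216723472, minus strand), had 0.611, 0.592 and 0.564 TPM in the same libraries and ESRRB, the gene of ERRβ (chromosome 14, 76371347 to 76501837, plus strand), 0.747, 0.483 and 0.492 TPM, so these 3 genes overlapped and their order there is not set. ESRRG reached 1 TPM in 38 AMPK libraries and 8 TFEB/TFE3 libraries, all of treated WT arms, and lay under it in every library of the other 3 tables, where its control level was 0 to 0.142 TPM. ESRRB reached 1 TPM in 12 FNIP1, 6 siRNA, 5 ESRRA and 2 AMPK libraries. PERM1 (chromosome 1, 975199 to 982117, minus strand) never did, with 0.11 TPM as its highest value. In bulk RNA, fewer cells that express a gene and less RNA per cell cannot be told apart.

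Changes are given as differences of log2(TPM + 1) ± standard error, tested with limma over every gene with at least 1 TPM in at least 3 libraries of its table (13317 to 13746 genes), and a gene rose or fell where its Benjamini-Hochberg adjusted p over those genes was under 0.05. The scale understates changes of genes near 1 TPM, so ratios of mean TPM are added. PPARGC1B, PPRC1, ESRRA and NRIP1 were tested in every table. PPARGC1A entered the test in the AMPK table alone, only through WT phenformin groups at 8 and 16 h, where it had to differ. ESRRG entered only through treated WT groups of the AMPK and TFEB/TFE3 tables. Their rises in those groups, their lower levels in the other arm and the differences of responses that use those groups are not independent results. ESRRB entered the ESRRA table through 3 WT libraries under DMSO and 2 others, so a fall against that group is no independent result either, and 9 of its 12 libraries at 1 TPM in the FNIP1 table are of the SA5 arm. With no filter, where entry plays no part, every call of PPARGC1A, ESRRG and ESRRB given here was still made. The labels do not say whether the 3 libraries of a group are separate cultures, so p-values measure only the spread between them.

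Over the 4 members tested in every table, 99 of 184 comparisons of a time of 991 with DMSO were called, 39 higher and 60 lower, where 38.3% of all gene comparisons were called. Phenformin gave 22 of 32, 15 higher and 7 lower, against 68.8% of all genes, CCCP 11 of 32 against 63.4%, and rotenone 11 of 32 against 59.5%. Single members are described next by role. How firm a call is was read by leaving 1 of the 3 replicate numbers out of every group in turn, and by rescaling the libraries by median ratios or quantiles. The heat map of every treated time shows where the calls fall.

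**Figure D1:**
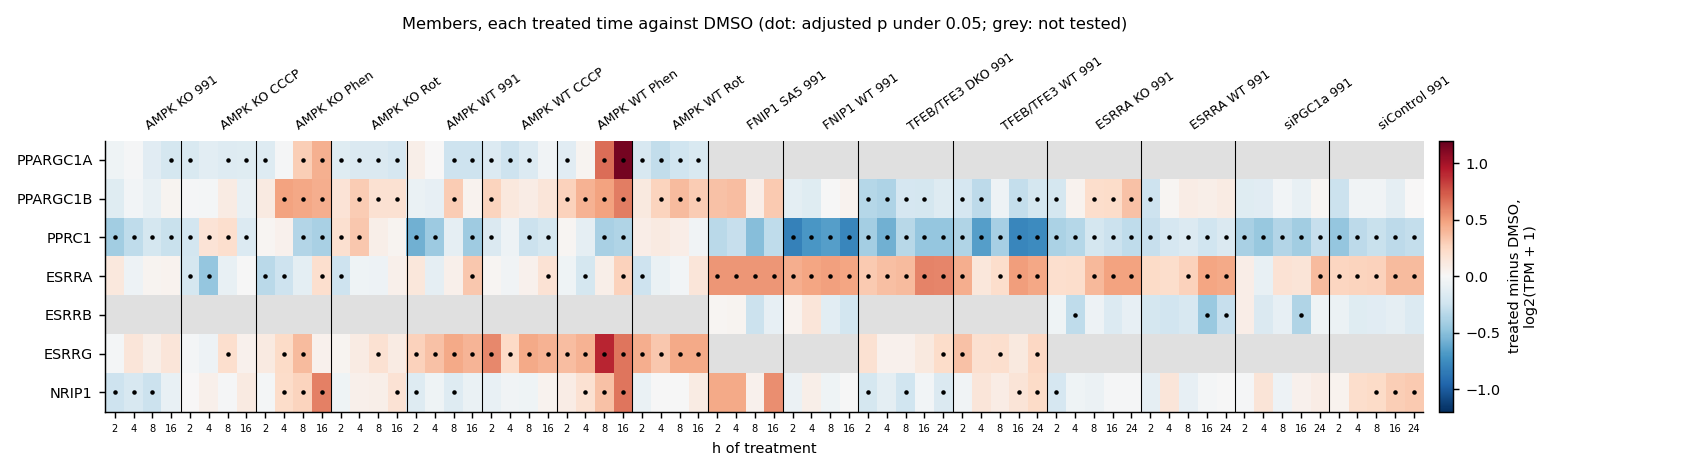
Change of 7 members (rows) at each treated time against DMSO of the same arm (columns, h of treatment, grouped by arm and compound), as differences of log2(TPM + 1), with red higher and blue lower than DMSO. Dots mark adjusted p under 0.05 and grey cells were not tested; PPRC1 is blue under 991 in every arm, and the darkest red is PPARGC1A in AMPK WT cells at 16 h of Phen.

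Among the coactivators, PPARGC1A had its highest levels of the series under phenformin, and it was lower in AMPK KO cells. AMPK KO cells had 0.956, 0.728 and 0.788 TPM at 16 h of Phen and 0.671, 0.526 and 0.774 TPM at 8 h, against 0.447, 0.244 and 0.37 TPM under DMSO. The KO libraries at both times lay above their own DMSO libraries. In KO cells, whose groups did not decide the entry of the gene into the test, it rose by 0.43 ± 0.0615, adjusted p = 2.69e-09 at 16 h (2.33 times) and 0.29 ± 0.0615, adjusted p = 2.42e-05 at 8 h (1.86 times). In AMPK WT cells it had 2.46, 2.34 and 2.55 TPM at 16 h and 1.62, 1.37 and 1.42 TPM at 8 h, against 0.657, 0.456 and 0.549 TPM under DMSO. All WT libraries at 8 h lay above DMSO and above all KO libraries at 16 h, and all at 16 h lay above those at 8 h. The change was 1.15 ± 0.0615, adjusted p = 3.55e-28 at 16 h, a mean 4.42 times that of DMSO, and 0.67 ± 0.0615 at 8 h, 2.65 times. The response of KO cells minus that of WT cells was -0.72 ± 0.0869, adjusted p = 5.01e-09 at 16 h, and -0.38 ± 0.0869, adjusted p = 0.00445 at 8 h, times at which 13.9% and 4.49% of all genes differed. The log2(TPM + 1) scale gives higher levels more weight. On the recovered reads, which do not, this difference was -0.87 at 16 h and passed the threshold, and -0.48 at 8 h and did not. With 1 replicate number left out the difference was -0.77 to -0.68 at 16 h, called each time, and -0.43 to -0.34 at 8 h, not called without replicate 2 or 3.

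**Figure D2:**
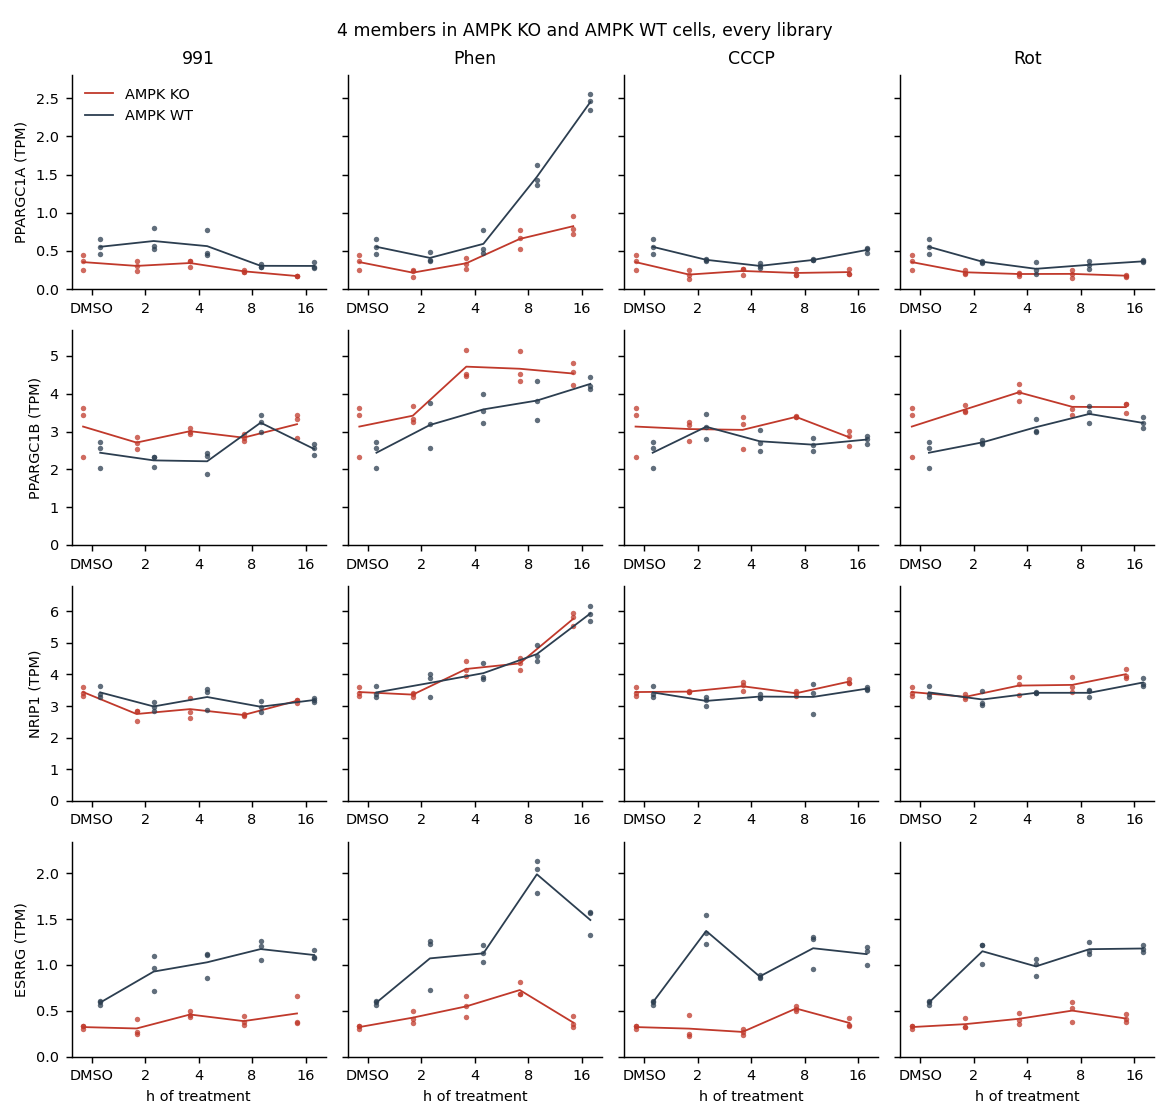
TPM of PPARGC1A, PPARGC1B, NRIP1 and ESRRG (rows) under DMSO and at 2 to 16 h of 991, Phen, CCCP and Rot (columns) in AMPK KO (red) and AMPK WT (dark blue) cells; points are libraries and lines join group means of 3. PPARGC1A in WT cells climbs to 2.34 to 2.55 TPM at 16 h of Phen, NRIP1 runs together in both arms, and ESRRG in KO cells stays under 1 TPM.

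In the AMPK table the other compounds gave falls of PPARGC1A and no rise. It was lower at all 4 times of rotenone in both arms, by 0.15 to 0.30 on the log2 scale, with 0.351, 0.2 and 0.246 TPM in WT cells at 4 h against 0.657, 0.456 and 0.549 TPM under DMSO (-0.30 ± 0.0615, adjusted p = 3.4e-05), and these libraries did not overlap. With CCCP it fell in KO cells at 2, 8 and 16 h (-0.18, -0.16 and -0.14) and in WT cells at 2, 4 and 8 h (-0.17, -0.25 and -0.17). With 991 it fell at 16 h in KO cells, where 0.174, 0.171 and 0.168 TPM stood against 0.447, 0.244 and 0.37 TPM under DMSO (-0.21 ± 0.0615, adjusted p = 0.00283), and at 8 and 16 h in WT cells. Of the rises under phenformin, at 8 and 16 h of both arms, 4 of 4 stayed called with each replicate number left out in turn. Those of WT cells decided the entry of the gene into the test, so only those of KO cells are set against the falls. The falls were less firm: 2 of 8 under rotenone, 1 of 6 under CCCP and 2 of 3 under 991 stayed called in the same way. The change of WT cells at 4 h of rotenone was then -0.30 to -0.29, and that of KO cells at 16 h of 991 -0.27 to -0.16, with the call lost without replicate 3. No fall under rotenone or CCCP was called under both median-ratio scaling and quantile normalization, and under the second the sign turned at 2 h of CCCP in both arms and of rotenone in KO cells. It had also been lower at 2 h of phenformin (-0.15 in KO and -0.14 in WT cells), calls lost with any replicate number left out (-0.18 to -0.12 and -0.17 to -0.12) and turned under quantile normalization. All comparisons of an arm share the same 3 DMSO libraries.

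In the other 4 tables PPARGC1A did not pass the filter, and its values under 991 went in both directions. At 2 h ESRRA KO cells had 0.93, 0.528 and 0.686 TPM, against 0.2, 0.394 and 0.422 TPM under DMSO, DKO cells had 0.509, 0.647 and 0.691 TPM, against 0.44, 0.438 and 0.406 TPM, and FNIP1 WT cells had 0.582, 0.523 and 0.486 TPM, against 0.362, 0.428 and 0.337 TPM. All treated libraries lay above all DMSO libraries in these 3 of 8 arms at 2 h and in no arm at 8 h, when they lay below in 4 of 8. The share of all genes that separate in this way is not given here, so these counts are descriptions. Fitted with no filter, 4 of these 38 comparisons were called, where 22% of all gene comparisons were. The rises were in ESRRA KO cells at 2 h (0.35 ± 0.0882, adjusted p = 0.0054) and siControl cells at 16 h (0.13 ± 0.0399, adjusted p = 0.0145), and the falls in ESRRA WT cells at 8 h (-0.31 ± 0.0882, adjusted p = 0.00913) and 16 h (-0.27 ± 0.0882, adjusted p = 0.0209).

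PPARGC1B rose with phenformin in both arms. KO cells had 4.47, 4.52 and 5.16 TPM at 4 h, against 2.33, 3.63 and 3.43 TPM under DMSO (0.48 ± 0.0834, adjusted p = 6.82e-07), and rose by 0.47 at 8 h and 0.44 at 16 h. WT cells had 4.13, 4.45 and 4.20 TPM at 16 h, against 2.04, 2.71 and 2.57 TPM under DMSO (0.62 ± 0.0834, adjusted p = 4.74e-10, 1.75 times), and were above DMSO at all 4 times. The groups did not overlap in either arm at these times, and the spread among the DMSO libraries was wide. PPARGC1B also rose at 4, 8 and 16 h of rotenone in both arms (0.30 in KO and 0.26 in WT cells at 4 h), and with CCCP in WT cells at 2 h alone (0.27). Under 991 it was called in 14 of 46 comparisons, 4 higher and 10 lower, where 25.6% of all gene comparisons were called higher and 12.7% lower. The lower ones were 8 in the TFEB/TFE3 table and 1 each in ESRRA KO and ESRRA WT cells at 2 h, and the higher ones were AMPK WT cells at 8 h (0.30) and ESRRA KO cells at 8, 16 and 24 h (0.21, 0.22 and 0.35). Of these 14 calls, 4 stayed with each replicate number left out, as did 6 of 7 under phenformin (WT cells at 2 h lost theirs, 0.23 to 0.30) and 3 of 6 under rotenone. The split under 991 was 2 higher and 13 lower under median-ratio scaling and 2 higher and 21 lower under quantile normalization.

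PPRC1 was lower under 991 in every experiment. Its promoter is shown because the gene gave the most frequent call of any member: the 300 bases of chr10:102132790-102133089 (RefSeq, GRCh38.p14, plus strand, 250 before to 50 after the start), with the match to AAGATGGC, a YY1-type motif, in capitals.
PPRC1: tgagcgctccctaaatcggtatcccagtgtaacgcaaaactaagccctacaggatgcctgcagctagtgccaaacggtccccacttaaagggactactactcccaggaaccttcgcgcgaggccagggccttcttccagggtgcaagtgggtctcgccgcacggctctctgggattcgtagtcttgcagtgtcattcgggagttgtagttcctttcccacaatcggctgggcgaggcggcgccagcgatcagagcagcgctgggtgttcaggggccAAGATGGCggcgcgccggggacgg
This motif is at bases 277 to 284, just after the start, and 2.89% of 35116 such promoters hold it on either strand.

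In AMPK KO cells PPRC1 had 17.7, 19.6 and 20.3 TPM at 2 h of 991, against 24.00, 26.9 and 27.3 TPM under DMSO (-0.42 ± 0.053, adjusted p = 3.2e-08). AMPK WT cells had 15.6, 17.3 and 16.8 TPM at 2 h, against 23.6, 26.2 and 25.8 TPM under DMSO (-0.58 ± 0.053, adjusted p = 1.16e-13). In both arms the treated libraries lay below all DMSO libraries. SA5 cells had 18.9, 20.9 and 19.1 TPM at 16 h, against 13.1, 34.2 and 32.6 TPM under DMSO, where the DMSO library that stands apart is the lowest of all (-0.31 ± 0.218). FNIP1 WT cells had 20.2, 19.6 and 20.3 TPM at 16 h, against 35.5, 36.1 and 33.9 TPM under DMSO (-0.78 ± 0.218, adjusted p = 0.0144), 0.57 times the DMSO mean. The fall was called in 41 of 46 comparisons, where 12.7% of all gene comparisons were called lower, between 0.11 and 0.81 on the log2 scale, and no rise was called. The 5 without a call were AMPK WT cells at 8 h and the 4 times of SA5 cells. Without the pair of SA5 libraries that stand apart, the fall at 16 h was -0.74 ± 0.0517 and all 4 SA5 times were called. The 4 calls of FNIP1 WT cells, which share the spread of those libraries, were lost without replicate 2 or 3 (-0.82 to -0.75 at 16 h) and held without the pair (-0.78). Under median-ratio scaling, quantile normalization and the fit of recovered reads, all 46 comparisons were called lower, and 34 to 45 were with 1 replicate number left out, fewest without replicate 2.

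The other compounds moved PPRC1 in both directions. It was lower at 8 and 16 h of phenformin in both arms, with 19.4, 20.1 and 19.5 TPM in KO cells at 16 h, against 24.00, 26.9 and 27.3 TPM under DMSO (-0.39 ± 0.053, adjusted p = 9.46e-10), with -0.36 in WT cells. Under CCCP the arms parted: at 8 h KO cells had 29.9, 30.1 and 30.3 TPM, against 24.00, 26.9 and 27.3 TPM under DMSO (0.20 ± 0.053, adjusted p = 0.0007), while WT cells had 20.4, 19.9 and 22.5 TPM, against 23.6, 26.2 and 25.8 TPM under DMSO (-0.26 ± 0.053, adjusted p = 2.21e-05). KO libraries at 8 h lay above their DMSO libraries and WT libraries below theirs. The difference of the responses, KO minus WT, was 0.46 ± 0.075, adjusted p = 3.04e-06 at 8 h and 0.23 ± 0.075, adjusted p = 0.0179 at 4 h. Of all genes, 21.4% differed between the arms at 8 h of CCCP. The difference at 8 h stayed called with each replicate number left out (0.42 to 0.52), and that at 4 h was lost without replicate 2 or 3 (0.16 to 0.28). PPRC1 rose in KO cells at 2 and 4 h of rotenone (0.19 and 0.32).

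Of the receptors, ESRRA is the one expressed well above 1 TPM, and it was higher under 991 in most arms, with no call in AMPK KO cells and 1 in siPGC1a cells. Its promoter is shown as that of the receptor the series knocks out: chr11:64305274-64305573 (RefSeq, GRCh38.p14, plus strand), with a match to an NRF1-type motif on the minus strand in capitals, at bases 158 to 167.
ESRRA: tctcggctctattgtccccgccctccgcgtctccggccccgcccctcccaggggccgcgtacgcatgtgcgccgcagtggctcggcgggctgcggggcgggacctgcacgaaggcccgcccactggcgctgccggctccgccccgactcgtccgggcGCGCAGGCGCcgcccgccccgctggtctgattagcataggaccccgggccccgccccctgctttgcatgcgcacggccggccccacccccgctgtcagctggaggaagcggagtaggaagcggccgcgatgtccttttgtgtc
Of all promoters, 5.78% hold this motif. TNAAGGTCA, the motif of the receptors themselves, is in none of the member windows of RefSeq and in 0.951% of all promoters, and TGACGTCA, CCGGAAGT, CACGTG and TGATGNAA, searched on both strands as well, are in neither printed window. The absence of these letters says nothing about binding elsewhere.

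At 16 h of 991, ESRRA had 19.6, 21.1 and 19.4 TPM in DKO cells, against 12.3, 12.6 and 13.9 TPM under DMSO (0.59 ± 0.0628, adjusted p = 1.21e-08). FNIP1 SA5 cells had 12.3, 11.6 and 12.4 TPM, against 7.60, 8.65 and 7.96 TPM under DMSO (0.53 ± 0.085, and 0.49 without the pair of libraries that stand apart). In both arms the treated libraries lay above all DMSO libraries, though under median-ratio scaling the SA5 change was 0.10 with no call. Changes at 16 h of 991 were 0.47 in FNIP1 WT, 0.50 in TFEB/TFE3 WT, 0.48 in ESRRA KO, 0.47 in ESRRA WT, 0.33 in AMPK WT and 0.38 in siControl cells. AMPK KO cells had 11.5, 10.9 and 11.5 TPM, against 11.9, 10.1 and 10.8 TPM under DMSO (0.043 ± 0.0738, adjusted p = 0.628), and their groups overlapped. siPGC1a cells had 8.07, 8.63 and 8.78 TPM at 16 h, against 7.21, 7.26 and 8.22 TPM under DMSO (0.15 ± 0.0799, adjusted p = 0.115), and rose at 24 h (0.38).

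Over all arms and times, ESRRA rose in 30 of 46 comparisons, where 25.6% of all gene comparisons were called higher, and fell in none: in 5 of 10 arms at 2 h, 4 of 10 at 4 h, 7 of 10 at 8 h, 8 of 10 at 16 h and 6 of 6 at 24 h. Under median-ratio scaling 16 rises remained in count and under quantile normalization 14, and all 8 of the FNIP1 table lost their call, a table where the median of all genes also moved by up to 0.36. The absence of a call in AMPK KO or siPGC1a cells does not show a difference between arms. Tested directly over all times, the response of ESRRA to 991 did not pass the threshold for AMPK KO against WT (adjusted p = 0.0579) or for siPGC1a against siControl (adjusted p = 0.298). With each replicate number left out in turn, 23 of the 30 rises stayed called.

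**Figure D3:**
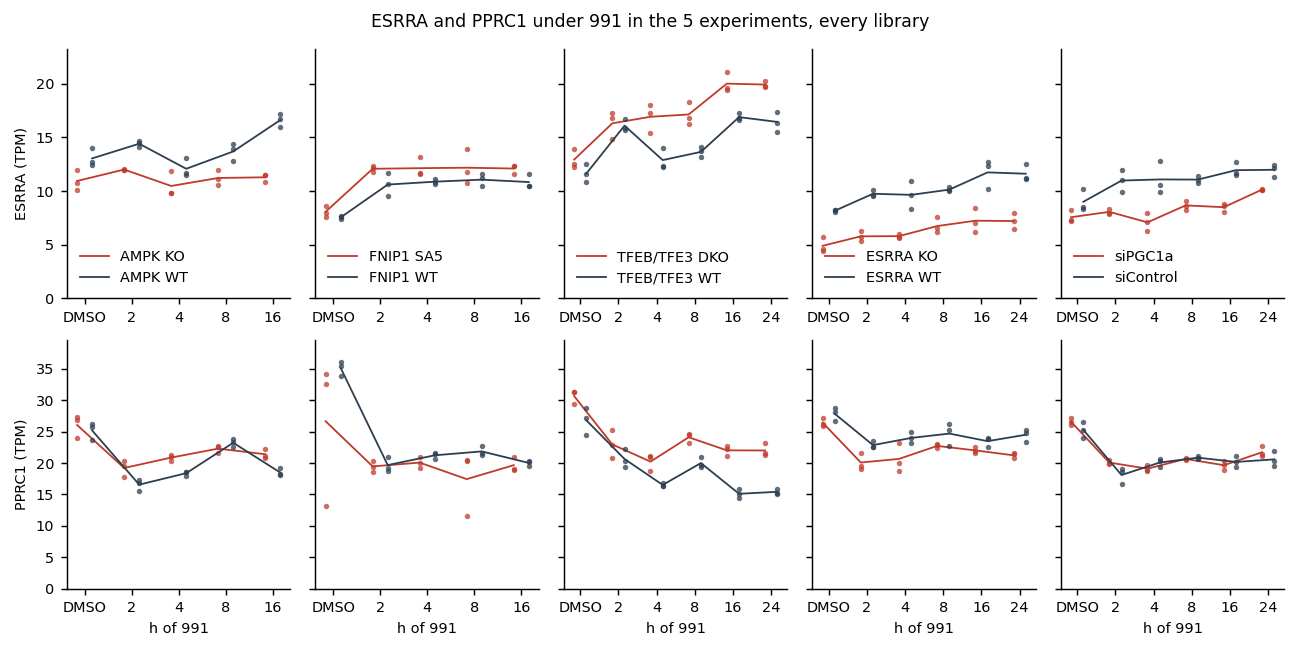
TPM of ESRRA (top) and PPRC1 (bottom) under DMSO and at 2 to 24 h of 991 in the 5 experiments (columns), with the altered arm in red and its control arm in dark blue; points are libraries and lines join group means of 3. ESRRA is higher than under DMSO in most arms and flat in AMPK KO cells at about 10 to 12 TPM; PPRC1 drops by 2 h in each column, and the low point at 13.1 TPM is the SA5 DMSO library that stands apart.

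The mitochondrial inhibitors had smaller and mixed effects on ESRRA. With phenformin it rose at 16 h in KO (0.20 ± 0.0738, adjusted p = 0.0109) and WT cells (0.28 ± 0.0738, adjusted p = 0.000558), after falls in KO cells at 2 and 4 h (-0.32 and -0.25) and in WT cells at 4 h (-0.21). CCCP at 4 h gave 7.72, 8.14 and 7.04 TPM in KO cells, against 11.9, 10.1 and 10.8 TPM under DMSO (-0.47 ± 0.0738, adjusted p = 8.98e-08), and 11.96, 12.6 and 13.3 TPM in WT cells, against 13.98, 12.4 and 12.7 TPM under DMSO (-0.044 ± 0.0738). The KO libraries lay below all their DMSO libraries, and the WT groups overlapped. The response at 4 h differed between KO and WT cells (-0.42 ± 0.104, adjusted p = 0.00126), where 27.6% of all genes did, but not without replicate 3 (-0.48 to -0.33 over the left-out numbers). The rises under phenformin were both lost without replicate 3 and under quantile normalization (0.19 to 0.22 in KO and 0.21 to 0.34 in WT cells over the left-out numbers). With rotenone ESRRA fell at 2 h in both arms (-0.25 in KO and -0.24 in WT cells), calls lost without replicate 3 in KO (-0.25 to -0.24) and without replicate 1 in WT cells (-0.30 to -0.17). ESRRA overlaps TRMT112 and has the pseudogenes ESRRAP1 and ESRRAP2, and the strand used in counting is not given in the sources used here, so its counts may hold some of their reads.

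ESRRG had its highest levels in AMPK WT cells, where each compound was followed by a higher level. At 8 h of Phen KO cells had 0.682, 0.809 and 0.686 TPM, against 0.33, 0.333 and 0.302 TPM under DMSO (0.38 ± 0.0731, adjusted p = 3.83e-06, 2.25 times), and at 16 h they had 0.318, 0.356 and 0.439 TPM with no call (0.052 ± 0.0731). The KO libraries at 8 h lay above their DMSO libraries. WT cells had 2.05, 1.79 and 2.13 TPM at 8 h, against 0.611, 0.592 and 0.564 TPM under DMSO (0.91 ± 0.0731, 3.38 times), above their DMSO libraries and all KO libraries treated for as long. KO cells were called once each under CCCP and Rot, at 8 h (0.21 and 0.18), and not under 991, whereas WT cells were higher at all 4 times of CCCP (0.58 at 2 h), Rot (0.32 to 0.46) and 991 (0.27 to 0.45). Over all times the responses differed between KO and WT cells for Phen (adjusted p = 3.83e-05), CCCP (adjusted p = 5.8e-05) and 991 (adjusted p = 0.028), where 15.9%, 52% and 32.1% of all genes did in that order. On recovered reads, a scale that gives no more weight to higher levels, the CCCP difference alone passed. The CCCP difference also stayed called with each replicate number left out, while the others were lost without replicate 3 (adjusted p of 0.00027 to 0.0853 for Phen and 0.0103 to 0.389 for 991). Treated WT groups of these compounds brought ESRRG into the test, so neither the differences nor these checks of them are independent of that entry.

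In the TFEB/TFE3 table ESRRG rose with 991 in WT cells at 2, 8 and 24 h (0.35, 0.20 and 0.25) and in DKO cells at 24 h, with 0.6, 0.677 and 0.589 TPM against 0.388, 0.43 and 0.367 TPM under DMSO (0.22 ± 0.0813, adjusted p = 0.0335). These DKO groups did not overlap. ESRRB, tested in the FNIP1, ESRRA and siRNA tables, fell in 4 of 28 comparisons with 991 and rose in none, a share of falls near the 12.7% of all gene comparisons. ESRRA WT cells had 0.612, 0.472 and 0.66 TPM of ESRRB at 16 h, against 1.05, 1.21 and 1.19 TPM under DMSO (-0.45 ± 0.107, adjusted p = 0.00115, and 0.000687 with no filter), and the groups did not overlap. The other falls were in ESRRA WT cells at 24 h (-0.28), ESRRA KO cells at 4 h (-0.30) and siPGC1a cells at 16 h (-0.36). With each replicate number left out, 1 of these 4 falls stayed called, that of ESRRA WT cells at 16 h (-0.49 to -0.38), and 3 of the 8 rises of ESRRG under 991 did, all in AMPK WT cells (the DKO change at 24 h was 0.21 to 0.22).

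NRIP1, the corepressor gene, rose with phenformin in both arms. At 16 h KO cells had 5.81, 5.95 and 5.52 TPM, against 3.41, 3.30 and 3.61 TPM under DMSO (0.61 ± 0.0555, adjusted p = 3.11e-16, 1.67 times). WT cells had 5.69, 5.93 and 6.18 TPM, against 3.37, 3.29 and 3.63 TPM under DMSO (0.65 ± 0.0555, adjusted p = 1.57e-17, 1.73 times). Treated libraries of both arms lay above all DMSO libraries, and the difference of the responses, KO minus WT, was -0.039 ± 0.0785 with no call. It also rose at 4 and 8 h in both arms, by 0.27 in KO and 0.35 in WT cells at 8 h. CCCP gave no call, and Rot only 1, in KO cells at 16 h (0.17). Under 991 NRIP1 rose in 5 comparisons and fell in 9 of 46, where 25.6% of all gene comparisons were called higher and 12.7% lower. The rises were in siControl cells at 8, 16 and 24 h and in TFEB/TFE3 WT cells at 16 and 24 h, with 4.11, 3.41 and 3.06 TPM in siControl cells at 24 h against 2.84, 2.42 and 2.61 TPM under DMSO (0.32 ± 0.0929, adjusted p = 0.00566). The falls were in AMPK KO cells at 2, 4 and 8 h, AMPK WT cells at 2 and 8 h, ESRRA KO cells at 2 h and DKO cells at 2, 8 and 24 h. Under median-ratio scaling and quantile normalization none of the rises was called, with 9 and 17 falls. With each replicate number left out, 2 of the 14 calls under 991 stayed, against 5 of 6 under phenformin. The rise of siControl cells at 24 h was lost without replicate 1 or 2 (0.27 to 0.39).

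PERM1, known as a muscle gene downstream of both families, was not tested in any table. It was listed at 0 in 41 AMPK libraries. In the AMPK table its highest level, 0.107 TPM in a KO library under DMSO, rests on 21 reads, and every WT library at 4, 8 and 16 h of Phen was at 0. A count of 0 allows up to 3 reads by counting error. With no filter on low values PERM1 was called higher in 1 and lower in 5 of 46 comparisons with 991, on these few reads.

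The altered arms were then compared with their control arms over all groups, which weighs each treatment and time equally. Of all genes, 85.3% differed between the AMPK arms, 30.4% between SA5 and FNIP1 WT, 74.9% between DKO and TFEB/TFE3 WT, 42.6% between the ESRRA arms and 59.7% between the siRNA arms. Over the 4 members tested in every table, 13 of 20 such differences were called, 6 higher and 7 lower. The share of all genes whose libraries separate fully between arms is not given here. Counts of groups in which a member lay fully below are therefore descriptions.

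AMPK KO cells had less RNA of PPARGC1A, ESRRA and ESRRG and more of PPARGC1B and PPRC1. ESRRG averaged 0.421 ± 0.128 TPM in AMPK KO libraries and 1.15 ± 0.308 TPM in AMPK WT libraries (SD, n = 51 each), and in 17 of 17 groups all KO libraries lay below all WT libraries (-0.59 ± 0.0177, adjusted p = 3.1e-44, and 1.29e-43 with no filter, since WT groups alone brought the gene into the test). PPARGC1A averaged 0.3 ± 0.182 TPM in AMPK KO libraries and 0.598 ± 0.547 TPM in AMPK WT libraries (SD, n = 51 each) and lay fully below in 16 of 17 groups (-0.25 ± 0.0149, adjusted p = 2.61e-26). It entered the test through WT groups of phenformin alone, so this call is no independent result. ESRRA averaged 10.3 ± 1.39 TPM in AMPK KO libraries and 13.4 ± 1.72 TPM in AMPK WT libraries (SD, n = 51 each), also fully below in 16 of 17 groups (-0.35 ± 0.0179, adjusted p = 1.05e-29). PPARGC1B and PPRC1 were higher by 0.16 and 0.14, while NRIP1 was not called (0.004 ± 0.0135). Already under DMSO, ESRRA was lower in KO cells (-0.24 ± 0.0738, adjusted p = 0.00777), where 38.9% of all genes differed, a call lost without replicate 2 or 3 (-0.25 to -0.22).

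**Figure D4:**
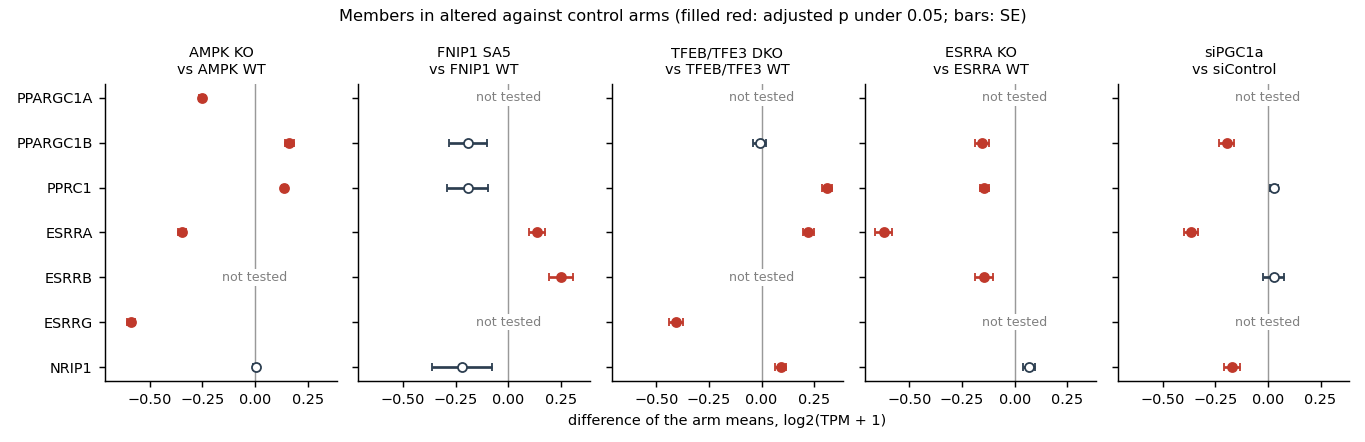
Difference of each altered arm from its control arm, averaged over all groups of a table, in log2(TPM + 1) (horizontal axis) for 7 members (rows) in the 5 experiments (columns); bars are standard errors and filled red points have adjusted p under 0.05. ESRRA is left of 0 in AMPK KO, ESRRA KO and siPGC1a cells and right of it in SA5 and DKO cells.

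In ESRRA KO cells, ESRRA RNA remained at a lower level, 6.28 ± 1.07 TPM in ESRRA KO libraries and 10.2 ± 1.44 TPM in ESRRA WT libraries (SD, n = 18 each), and lay fully below in 6 of 6 groups (-0.62 ± 0.039, adjusted p = 2.74e-13). These TPM cover the listed transcript whole and do not show whether the remaining RNA encodes protein. PPARGC1B, PPRC1 and ESRRB were lower as well (-0.16 ± 0.0324, -0.14 ± 0.0229 and -0.15 ± 0.0436), and NRIP1 was not called (0.069 ± 0.0299). The ESRRB call was lost without replicate 1 (-0.17 to -0.11). In the siRNA arms the targeted gene was lower: PPARGC1A averaged 0.0578 ± 0.0286 TPM in siPGC1a libraries and 0.361 ± 0.0712 TPM in siControl libraries (SD, n = 18 each), for which a two-sided permutation test of the arm labels within each time gave p = 1e-05, the smallest that 100000 resamples can give. ESRRA was lower in the siPGC1a cells, 8.34 ± 1.08 TPM in siPGC1a libraries and 11.01 ± 1.29 TPM in siControl libraries (SD, n = 18 each), fully below in 6 of 6 groups (-0.36 ± 0.0326, adjusted p = 8.63e-11). PPARGC1B (-0.20 ± 0.0364, adjusted p = 3.43e-05) and NRIP1 (-0.17 ± 0.0379, adjusted p = 0.000295) fell too, the second not without replicate 1 (-0.21 to -0.12 over the left-out numbers), and PPRC1 (0.028 ± 0.0192) and ESRRB (0.026 ± 0.0507) were not called.

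In DKO cells ESRRA was higher. It averaged 17.2 ± 2.61 TPM in TFEB/TFE3 DKO libraries and 14.6 ± 2.13 TPM in TFEB/TFE3 WT libraries (SD, n = 18 each), a difference of 0.22 ± 0.0257, adjusted p = 6.84e-09, and PPRC1 was higher too (0.31 ± 0.0249, adjusted p = 2.9e-12). ESRRG averaged 0.501 ± 0.11 TPM in TFEB/TFE3 DKO libraries and 0.992 ± 0.174 TPM in TFEB/TFE3 WT libraries (SD, n = 18 each) and was fully below in 6 of 6 groups (-0.41 ± 0.0332, adjusted p = 4.63e-12). Treated WT groups alone brought ESRRG into the test there, so its lower level in DKO cells is no independent result. NRIP1 was higher (0.091 ± 0.0264, adjusted p = 0.0029), a direction that turned to -0.034 without a call under quantile normalization and a call that was lost under median-ratio scaling and without replicate 1 (0.077 to 0.11), and PPARGC1B was not called (-0.009 ± 0.0291). SA5 cells had more ESRRA (0.13 ± 0.038, adjusted p = 0.0115) and ESRRB (0.25 ± 0.0565, adjusted p = 0.0021) than FNIP1 WT cells. Their PPARGC1B, PPRC1 and NRIP1 differences (-0.19, -0.19 and -0.22) were not called and shrank to -0.069, -0.057 and -0.018 without the pair of SA5 libraries that stand apart, while ESRRA and ESRRB stayed at 0.12 and 0.29. The ESRRA and ESRRB calls were each lost without replicate 2 or 3 (0.12 to 0.14 and 0.21 to 0.32). ESRRG, under the filter there, averaged 0.0109 ± 0.00989 TPM in FNIP1 SA5 libraries and 0.0959 ± 0.0405 TPM in FNIP1 WT libraries (SD, n = 15 each). PPARGC1A, untested outside the AMPK table, averaged 0.254 ± 0.0989 TPM in FNIP1 SA5 libraries and 0.394 ± 0.116 TPM in FNIP1 WT libraries (SD, n = 15 each), 0.442 ± 0.11 TPM in TFEB/TFE3 DKO libraries and 0.33 ± 0.0904 TPM in TFEB/TFE3 WT libraries (SD, n = 18 each), and 0.42 ± 0.189 TPM in ESRRA KO libraries and 0.419 ± 0.153 TPM in ESRRA WT libraries (SD, n = 18 each), and these arms overlapped. Outside the siRNA table the arms differ in genotype throughout, and an effect of the change itself and of the derivation of the lines cannot be told apart. The siRNA arms differ in the siRNA given, and an effect of lower PPARGC1A and other effects of that siRNA cannot be told apart.

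The response to 991 itself differed between arms for few members. Over the 4 members tested in every table, 5 of 92 differences of responses at single times were called, where 4.83% of all gene comparisons were. In the TFEB/TFE3 table the fall of PPRC1 was smaller in DKO than in WT cells. At 16 h DKO cells had 22.2, 21.1 and 22.7 TPM, against 29.5, 31.3 and 31.2 TPM under DMSO, and WT cells had 14.4, 15.1 and 15.9 TPM, against 24.4, 28.8 and 27.2 TPM under DMSO. All treated libraries lay below DMSO in both arms, and the WT ones were lowest. The responses differed by 0.33 ± 0.0864, adjusted p = 0.0123 at 16 h and 0.30 ± 0.0864, adjusted p = 0.0201 at 24 h. NRIP1 differed the other way, by -0.33 ± 0.0915, adjusted p = 0.0176 at 8 h and -0.41 ± 0.0915, adjusted p = 0.00306 at 24 h. At 24 h it had 4.21, 4.29 and 3.55 TPM in DKO cells, against 4.60, 4.58 and 4.78 TPM under DMSO, and 4.39, 4.05 and 4.55 TPM in WT cells, against 3.68, 3.34 and 3.61 TPM under DMSO. The DKO libraries lay below their DMSO libraries, and the WT libraries lay above theirs. None of these was firm: with 1 replicate number left out, the PPRC1 differences were 0.32 to 0.34 and 0.29 to 0.31 and lost their call each time, and the NRIP1 difference at 24 h was lost without replicate 3 (-0.46 to -0.30) and that at 8 h each time (-0.36 to -0.31). In the AMPK table PPARGC1B differed at 8 h of 991 (-0.40 ± 0.118, adjusted p = 0.0108), not without replicate 2 or 3 (-0.49 to -0.31). Over all times, ESRRA differed in the TFEB/TFE3 table (adjusted p = 0.0325, where 26.8% of all genes did), again not with any replicate number left out (adjusted p of 0.0921 to 0.366). No member differed over all times between the ESRRA arms, where 6.88% of all genes did, between the siRNA arms, where 0.560% did, or between SA5 and FNIP1 WT cells; there limma called 0 genes, with 282 at an unadjusted p under 0.05, none by the fit of recovered reads, and 37 without the pair of libraries that stand apart.

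Genes that work with the members were read from lists of 38 partners (transcription factors, coactivators and corepressors) and 37 genes widely described as targets. The lists were chosen with earlier results known, so their counts are descriptions. At 16 h of 991 in AMPK WT cells 23 rose and 6 fell of 36 tested (median 0.25, all genes 0.071) among partners, where 41.9% of all genes rose and 26.9% fell, and 9 rose and 14 fell of 33 tested (median -0.036, all genes 0.071) among targets. Over the 10 arms at 16 h of 991, the partners' median lay above that of all genes in 6, and below it in FNIP1 WT cells (-0.025, all genes 0.068) and 3 others, and the targets' median lay below it in 10, from -0.049 to 0.099. Partners with the largest rises were RXRA, the common dimer partner of nuclear receptors, at 6.22 to 6.64 TPM under 991 against 2.71 to 3.33 TPM under DMSO, and the thyroid hormone receptor gene THRA (0.88). PRMT1, an arginine methyltransferase that modifies PGC-1α, and the acetyltransferase gene KAT2A fell most (-0.68 and -0.58). Among targets VEGFA, the vessel growth factor, and CPT1A, the carnitine shuttle of fatty acids, rose most (0.83 and 0.49), and cytochrome c (CYCS) and TIMM8B, an import factor of mitochondria, fell most (-0.51 and -0.46).

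Phenformin at 16 h gave larger medians: among partners 28 rose and 7 fell of 36 tested (median 0.65, all genes 0.015) in KO cells and 28 rose and 6 fell of 36 tested (median 0.69, all genes 0.073) in WT cells, and among targets 7 rose and 19 fell of 33 tested (median -0.19, all genes 0.015) in KO and 7 rose and 22 fell of 33 tested (median -0.24, all genes 0.073) in WT cells. In KO cells 41.2% of all genes rose and 37.7% fell, and in WT cells 45.3% of all genes rose and 34.9% fell. In ESRRA KO cells, 2 rose and 27 fell of 32 tested (median -0.13, all genes -0.039) among targets and 1 rose and 19 fell of 36 tested (median -0.072, all genes -0.039) among partners, where 9.71% of all genes rose and 32.9% fell. OGDH, an enzyme of the tricarboxylic acid cycle, and CYCS fell most (-0.29 each), and VEGFA and CPT1B were the targets that rose (0.20 and 0.15). MYBBP1A, a repressor of PGC-1α, and the Mediator subunit gene MED1, which stands in both lists, were the partners that fell most (-0.24 each), and PPARG the one that rose (0.061). In siPGC1a cells, 10 rose and 14 fell of 33 tested (median -0.017, all genes 0.022) among targets and 10 rose and 9 fell of 36 tested (median -0.009, all genes 0.022) among partners, where 34.3% of all genes rose and 25.4% fell. CPT1A and the tricarboxylic acid cycle gene IDH3A fell most among targets (-0.60 and -0.45), and UCP2 and the mitofusin gene MFN2 rose most (0.35 and 0.30). Among partners NCOA3 fell most (-0.64), followed by CRTC3 (-0.13), and MEF2D and CREBBP rose most (0.28 and 0.20).

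Genes whose pattern was most like that of a member were named by Pearson r over the 34 group means of the AMPK table among 7756 genes, with r over the 46 group means of the other tables beside it. The groups share 1 table, its arms and its depth. For PPARGC1B the highest were NFATC3 (0.899 and 0.472), HELZ (0.898 and 0.575) and MARK2 (0.893 and 0.348), and the lowest CYTOR (-0.879 and -0.299). For PPRC1 they were BRIX1 (0.863 and 0.631), NAA15 (0.807 and 0.662) and COA7 (0.798 and 0.657), with OCEL1 lowest (-0.75 and -0.255). ESRRA was most like LRRC61 (0.921 and 0.498), COX17 (0.887 and 0.486) and B4GALT6 (0.884 and 0.426), and least like CLEC2D (-0.874 and -0.121). NRIP1 was like FBXO11 (0.937 and 0.758) and CLSTN1 (0.935 and 0.42), and least like LDOC1 (-0.927 and -0.048). BRIX1 is known as a ribosome assembly factor and COX17 as a copper carrier for cytochrome c oxidase. In the other tables every one of these correlations was closer to 0.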

How the data were processed

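The 240 libraries of polyadenylated RNA were placed in 80 groups by title, library name and label tags. Per the submitters' processing notes, FastQC, STAR and HOMER were used with GRCh38; no versions are given. The deposited values are TPM made by the authors, with 1 transcript for each of 27234 genes in each of 5 tables. TPM times transcript length came out as whole multiples of 1 step, within 0.1 read, for all low values checked (1765 to 4947 a library), which gave the recovered reads. A gene was kept in a table where 3 or more libraries had at least 1 TPM. Values were taken as log2(TPM + 1) and fitted with limma 3.58.1 in R 4.3.3, with 1 mean per group, all libraries of a table in 1 fit, and variances that follow the mean level. P-values were adjusted by Benjamini-Hochberg over all genes kept, with calls under 0.05. The fit was tested on simulated data built from the tables. The altered arms were compared with control arms under DMSO and as means over all groups, and responses as differences of differences.

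As alternatives, replicate numbers were left out in turn or entered as a block, the fit was limited to the compared groups, the pseudocount was set to 0.1, the filter was dropped, and libraries were rescaled by quantiles or by median ratios. After the data were seen, 2 were added: voom on recovered reads for genes with at least 10 reads in at least 3 libraries, and a fit without the pair of SA5 libraries that stand apart. The members and gene lists were chosen with earlier results of these data known. Named genes were all members, up to 2 rises and 2 falls of each list in 3 comparisons, the 3 most like and the 1 least like gene of each member tested in every table, and the targeted genes; 1 gene that this rule names is not reported here. Likeness was searched among genes kept in all tables with a mean of at least 5 TPM, leaving out antisense genes, small RNAs and LOC symbols. Promoters come from RefSeq (GRCh38.p14). Python 3.11.15 and pandas 2.3.3 were used for the summaries.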

Additional observations from a re-analysis of the deposited data

Results flagged for a closer look

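These results are given because the response of an altered arm differed from that of its control arm by a test of the difference itself (limma, Benjamini-Hochberg adjusted p under 0.05 over all genes kept). Differences are altered minus control arm on the log2(TPM + 1) scale, groups have 3 libraries each, and no explanation was tested. PPARGC1A and ESRRG entered the test only through treated WT groups. Their differences that use those groups, also those over all times, are therefore not independent results.

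In the AMPK table, the phenformin response of PPARGC1A in KO minus WT cells was -0.377 at 8 h and -0.721 at 16 h, and differed over all times with an adjusted p of 2.23e-10. By voom on recovered reads, which gives no more weight to higher levels, the adjusted p over all times was 0.0333. For ESRRG the phenformin difference was -0.526 at 8 h and -0.595 at 16 h (over all times, adjusted p = 3.83e-05). Its CCCP difference was -0.598 at 2 h, -0.297 at 4 h and -0.366 at 16 h (over all times, adjusted p = 5.8e-05). Its 991 difference was -0.382 at 8 h (over all times, adjusted p = 0.028). Its rotenone difference was -0.401 at 2 h and -0.357 at 16 h, with no call over all times (adjusted p = 0.0583). Neither of these rotenone calls stayed under both rescalings. By voom on recovered reads, ESRRG differed over all times for CCCP alone (adjusted p = 0.0521 for Phen, 0.232 for 991 and 0.385 for rotenone). PPRC1 differed under CCCP by 0.226 at 4 h and 0.459 at 8 h (over all times, adjusted p = 7.9e-08) and under 991 over all times (adjusted p = 0.0108). ESRRA differed under CCCP by -0.423 at 4 h (over all times, adjusted p = 0.0089). PPARGC1B differed under 991 by -0.396 at 8 h (over all times, adjusted p = 0.00951).

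In the TFEB/TFE3 table, the 991 response of DKO minus WT cells was 0.326 at 16 h and 0.295 at 24 h for PPRC1 (over all times, adjusted p = 0.00485), and -0.326 at 8 h and -0.406 at 24 h for NRIP1 (over all times, adjusted p = 0.0172). ESRRA differed over all times alone (adjusted p = 0.0325). Of these differences, those of PPARGC1A for phenformin at 16 h and over all times, PPRC1 for CCCP at 8 h and over all times, and ESRRG for phenformin at 16 h and CCCP over all times stayed called with each replicate number left out. The others lost their call at least once.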

How the results depend on the processing

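The counts of member calls moved by less than 1.5 times under every alternative run for treated times (194), time courses (65) and arm means (18). Leaving out 1 replicate number gave 135 to 167, 49 to 57 and 15 to 16, and the partners and targets called in AMPK WT cells at 16 h of 991 numbered 29 and 23, and 27 to 29 and 17 to 21 with a number left out. Arm differences under DMSO were fewer, 10 in all, 5 when the fit held the compared groups alone, and 3 to 8 with a replicate number left out. Differences of responses over all times numbered 11, and 3 to 12 with a number left out, fewest without replicate 3.

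Among the values followed, a change of sign counted only if the value was called in the main fit or under the alternative. Signs that changed with no call in either fit were not counted. All 11 values that turned by this rule did so under quantile normalization. For PPARGC1A they were CCCP at 2 h (0.0157 in KO and 0.0194 in WT cells) and Phen at 2 h (0.0789 and 0.0776). In KO cells PPARGC1A also turned for Phen at 4 h (0.272) and Rot at 2 h (0.0328). For NRIP1 they were Phen at 2 h in KO (0.125), 991 at 16 h in TFEB/TFE3 WT (-0.0636) and DKO against WT (-0.034). The others were ESRRB for 991 at 4 h in SA5 (-0.496) and ESRRG for 991 at 8 h in DKO (-0.342). The cause was not tested. Of 576 values, a set that leaves out a few leading results, 43 lost their call without turning under median-ratio scaling and 25 gained one. Under quantile normalization 63 lost their call without turning and 63 gained one, and on recovered reads 19 lost and 15 gained one. Calls lost by values that turned come on top of these. The calls of ESRRA under 991 dropped to 16 and 14 of 46 under the 2 scalings.

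The replicate number as a block ended no call and added 12 of 576, for 202 calls at treated times. Of the AMPK libraries, 75 correlated best with their own number and 27 did not, so the numbers go with some shared variation there. Correlations of same-numbered AMPK libraries ran from -0.129 to 0.693, with a median of 0.0925, and 71 of 147 pairs passed 0.1. Elsewhere, 5 of 39 pairs or fewer passed 0.1 in each experiment. Whether the numbers pair the AMPK libraries is not settled by these values, a hint from the data alone, and the main fit does not use the numbers. At the read totals outside the AMPK table, PERM1, ESRRG and PPARGC1A rest on few reads there.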

Other observations

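Members varied together to different degrees over the 34 group means of the AMPK table, which share its arms, its DMSO groups and its depth. The highest Pearson r was between PPARGC1B and NRIP1 (0.708), followed by ESRRA and ESRRG (0.703) and PPARGC1A and NRIP1 (0.687). PPRC1 and ESRRA ran in opposite directions (-0.574). These are descriptions of group means, given with no test.

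Other motifs searched in the RefSeq promoters of the members had few matches. CACGTG, the core bound by TFEB and other helix-loop-helix factors, stood in 1 of the 2 windows of PPARGC1A and in 7.26% of all promoters. TGATGNAA, the letters of the ATF4 composite site, stood in a window of ESRRG and in one of NRIP1, and in 3.62% of all promoters. A match is a description of letters and not of binding.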
